A study of Rattus norvegicus with 8 samples.

Results

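The nuclear genes of oxidative phosphorylation were taken from the count table by symbol: every row that begins with Nduf, Sdha, Sdhb, Sdhc, Sdhd, Uqcr, Cox4 to Cox8 or Atp5 and holds at least 80 counts summed over the 8 libraries. Of 89 such rows, 82 met the count limit, among 16871 genes in all, and each of the 82 was tested. They comprise 33 subunits of complex I (7 core, 26 accessory), 4 of complex II, 8 of complex III, 10 of complex IV, 15 of complex V, and 12 assembly factors or other genes that share the prefixes without being an established subunit. Of the 13 respiratory subunits encoded by mitochondrial DNA, 0 were in the table, and they were not analysed here.

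The measurements are BrU-seq counts of nascent RNA, in which living cells incorporate bromouridine and the newly made RNA is then captured and sequenced. Neurons of both hippocampus and cortex, taken from Sprague Dawley rat pups and grown together per the growth protocol (the sample titles name hippocampal cultures only), received water (H) or 1 µM tetrodotoxin (T, or TTX, a sodium channel blocker that stops action potentials). This first treatment began on day 14 in vitro and lasted 24 h. After 48 h without drug came a second treatment of 4 h, on day 17, again with water or TTX, and 2 mM bromouridine was present for its last 0.5 h. Groups are named by the first and then the second treatment: HH had water both times, HT had TTX only the second time, TH only the first time and TT both times. Each group has 2 libraries, and all 4 groups share the culture type, the washout and the bromouridine. The labels do not say whether replicates are separate cultures, so the spread behind each p-value is that of these libraries alone and may be technical.

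Oxidative phosphorylation makes most of a neuron's ATP. Complex I (NADH dehydrogenase) and complex II (succinate dehydrogenase) pass electrons to coenzyme Q, complex III (the cytochrome bc1 complex) passes them on to cytochrome c, and complex IV (cytochrome c oxidase) to oxygen. Complexes I, III and IV pump protons across the inner mitochondrial membrane, and complex V (ATP synthase) uses the gradient to make ATP. Most subunits are encoded in the nucleus, and the transcription factors NRF1, NRF2 (GABP, of the ETS family), YY1 and SP1 and the coactivator PGC-1α are known regulators of these genes. In neurons, transmission of impulses and the pumping of ions that follows it are a large part of the demand for ATP.

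Library totals lay between 3489176 and 4959887 counts. The 82 genes together held between 0.305% (TH replicate 2) and 0.376% (TH replicate 1) of a library. The lowest count of any of them in any library was 13. All 8 pan-neuronal markers were present, with summed levels of 3730 to 5960 CPM (read counts relative to the library's normalized total). The 7 heart and skeletal muscle markers summed to between 5.17 and 8.27 CPM. Astrocyte markers (8 of 8 in the table) summed to 1330 to 2000 CPM, so glial RNA was present too. In such bulk samples, fewer cells of a type and less RNA per cell cannot be told apart.

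The rows just inside the count limit were Sdhaf3 (150 summed counts) and Ndufa10l1 (172), and those just outside were Ndufa4l2 (22) and Cox6a2 (19). The other rows left out were Cox6b2 (17), Cox8c (15), Cox4i2 (5), Cox6c-ps1 (3) and Cox8b (0). Several of these are known as the muscle, testis or hypoxia forms of subunits. Widely expressed partner forms were among the 82: Cox4i1 ranged from 58.5 to 76.5 CPM over the 8 libraries. Cox6a1 ranged from 41.9 to 61.7 CPM and Ndufa4 from 42.3 to 55.5 CPM.

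Subunit c, the ring of complex V through which protons flow, is encoded by 3 genes, Atp5g1, Atp5g2 and Atp5g3, whose mature proteins are known to be the same. Their fitted changes with TTX were not of the same size, a difference described further on and not tested. The 250 bases before each start site are shown to let the 3 promoters be compared. They are RefSeq sequences of the GRCr8 assembly, matched by symbol (listed there as Atp5mc1, Atp5mc2 and Atp5mc3), all from the minus strand and written 5′ to 3′. Capitals mark matches to the NRF1 letters GCATGCGC, which in Atp5g2 overlap on both strands.
Atp5g1: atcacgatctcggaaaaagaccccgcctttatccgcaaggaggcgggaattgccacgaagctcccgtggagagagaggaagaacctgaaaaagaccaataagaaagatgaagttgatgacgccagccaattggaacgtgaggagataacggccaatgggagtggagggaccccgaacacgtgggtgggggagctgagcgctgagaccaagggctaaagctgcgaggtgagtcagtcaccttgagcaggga
Atp5g2: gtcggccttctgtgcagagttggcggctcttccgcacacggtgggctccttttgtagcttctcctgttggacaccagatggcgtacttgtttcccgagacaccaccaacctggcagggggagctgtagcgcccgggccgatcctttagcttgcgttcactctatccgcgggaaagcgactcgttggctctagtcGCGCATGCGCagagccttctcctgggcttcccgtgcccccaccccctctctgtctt
Atp5g3: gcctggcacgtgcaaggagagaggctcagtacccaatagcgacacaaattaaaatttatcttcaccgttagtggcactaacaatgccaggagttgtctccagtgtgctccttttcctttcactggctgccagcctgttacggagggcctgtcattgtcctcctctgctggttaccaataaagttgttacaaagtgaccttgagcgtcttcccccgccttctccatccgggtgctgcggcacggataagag
The Atp5g2 window held the NRF1 letters, and the windows of Atp5g1 and Atp5g3 did not. None of the 3 held the ETS, YY1 or SP1 letters searched.

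Across the whole set, 71 of the 82 genes had a promoter in the RefSeq table, read from 250 bases before to 50 after the start. The letters searched on both strands were GCATGCGC (NRF1), CCGGAAG (ETS), AAGATGGC (YY1), GGGCGG (SP1) and TGACGTCA (CRE, the cyclic AMP response element). The NRF1 letters were in 14.1% of these promoters, against 5.0% of the promoters of all genes tested and 2.7% of all promoters in the table. YY1 letters were in 19.7%, against 5.5% and 3.4%, and ETS letters in 31.0%, against 17.5% and 9.2%. SP1 letters were in 43.7%, below the 62.4% of all genes tested and above the 34.9% of all promoters. CRE letters were in 5.6%, against 3.3% and 1.9%. Promoters of 76 cytosolic ribosomal protein genes, 61 of which had an entry, held the NRF1 letters in 3.3%, the YY1 letters in 8.2%, the ETS letters in 32.8%, the SP1 letters in 59.0% and the CRE letters in 4.9%. The share with ETS letters was thus close in both sets. A match describes the letters of this window and is not evidence of binding, and 20 of the 71 promoters held none of the first 4 motifs.

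**Figure D1:**
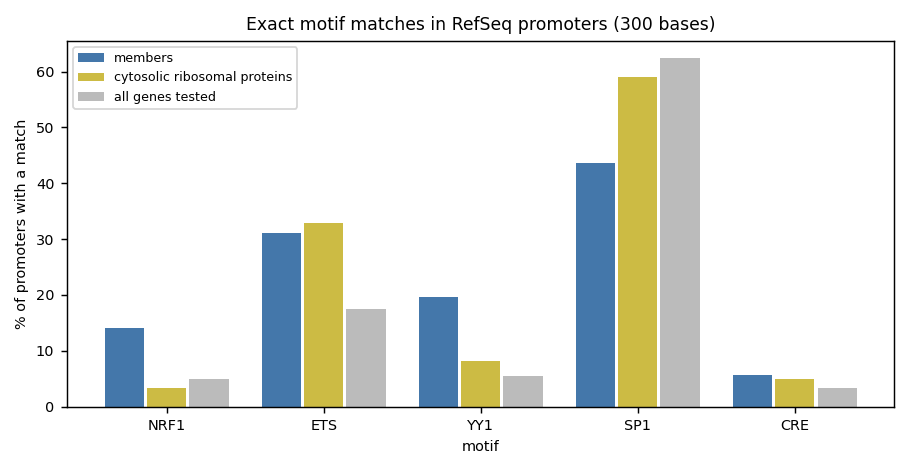
Share of promoters, in percent, that hold each motif on either strand within the 300-base window, for the oxidative phosphorylation genes (71 promoters), the cytosolic ribosomal protein genes (61) and all genes tested (9181). NRF1, ETS and YY1 letters were in a larger share of the oxidative phosphorylation promoters (14.1%, 31.0% and 19.7%) than of those of all genes tested (5.0%, 17.5% and 5.5%), and SP1 letters in a smaller share.

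The highest and lowest library of each gene were compared within the set only, without a reference from other genes. In 78 of 82 the highest CPM was less than 2 times the lowest, and the median ratio was 1.45. The steadiest were Ndufa10 and Ndufv2 of complex I, with a ratio of 1.13. Uqcr10, a small subunit of complex III, had the widest range (2.29), from 9.06 CPM in HT replicate 1 to 20.7 in TH replicate 1. In edgeR's quasi-likelihood test with Benjamini-Hochberg adjustment over 11372 genes, 0 of the 82 passed an adjusted p of 0.05 in any of the 7 comparisons, and neither did any other gene (0%). Medians and counts below therefore describe the set and single genes are given as values that did not pass.

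The level of the set in a library was taken as the mean over the 82 genes of log2 CPM relative to each gene's own mean. It was 0.081 and 0.11 in the HH libraries, -0.073 and -0.0061 in HT, 0.14 and -0.13 in TH, and -0.044 and -0.073 in TT. The order of the group means was HH (0.094 ± 0.018, SD, n = 2), TH (0.0048 ± 0.19), HT (-0.040 ± 0.048) and TT (-0.059 ± 0.020). Neighbours in this order were closer than the pooled SD within groups (0.10). Both HH libraries lay above all 4 libraries given the second TTX, while the 2 TH libraries were the highest and the lowest of the 8. TH replicate 1 was the highest library for 26 genes of the set, and TH replicate 2 was the highest for 0 and the lowest for 26. TH replicate 1 exceeded TH replicate 2 in 70 of 82 genes (85.4%, against 50.7% of all genes tested), by a median log2 difference of 0.28. The 76 cytosolic ribosomal protein genes did likewise in 74, by 0.35. On the scale of the set's level, the 20 glycolysis genes stood at 0.24 and -0.24 in TH replicates 1 and 2. The 17 tested TCA cycle genes stood at 0.056 and -0.051. Inhibitory neuron markers, 6 of 7 tested, had a mean of 0.35 and -0.38 in the 2 TH libraries on the same scale. Gad1, Slc32a1, Sst and Npy were higher in TH replicate 1, and Gad2 (297 and 304 CPM) and Dlx1 (18.5 and 20.6) were not. Pan-neuronal markers stood at 0.053 and -0.041 and excitatory neuron markers at 0.036 and -0.010. The part of these markers in the result was not tested.

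**Figure D2:**
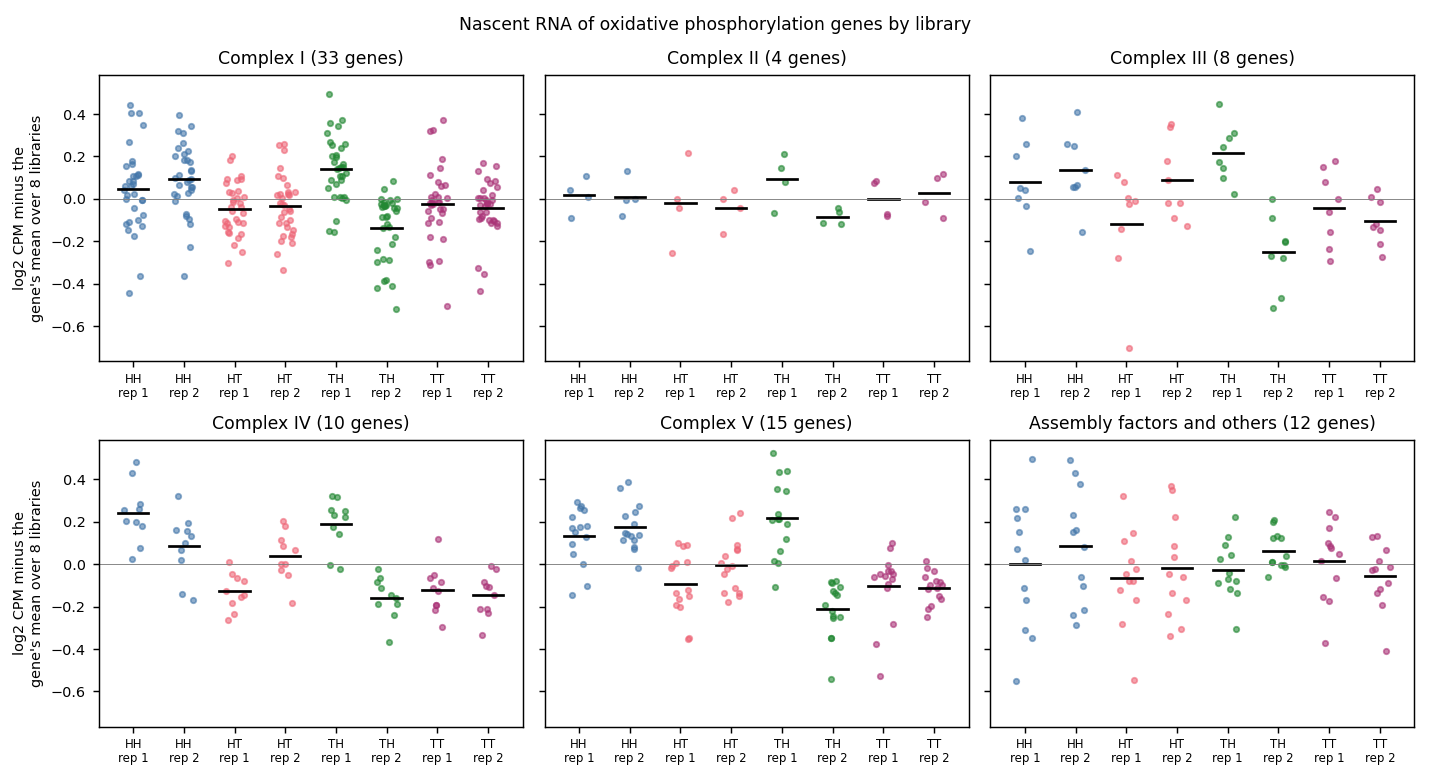
Position of each of the 82 genes in each library, as log2 CPM minus the gene's mean over the 8 libraries, by complex, with the bar at the mean of the genes shown. Over the whole set, a mean not drawn here, the HH libraries sit above 0 and the 4 libraries given the second TTX below it. TH replicates 1 and 2 lie on opposite sides (0.14 and -0.13 for the whole set). Single panels differ: HT replicate 2 is above 0 in complex III (0.088) and complex IV (0.039). In complex II both TT libraries are above 0 (0.0015 and 0.027).

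The first comparison asks how 4 h of TTX changed transcription in cultures that had not been silenced before (HT against HH). Fitted log2 changes of complexes IV and V were below 0 in 10 of 10 and 15 of 15 genes, with medians of -0.23 and -0.16. Both HT libraries lay below both HH libraries in 6 of these 10 and 10 of these 15. Complex I had a median of -0.096, with 23 of 33 below 0, complex III -0.044 with 7 of 8, and complex II -0.0052 with 2 of 4. Over the 82 genes the median was -0.13 and 64 lay below 0 (78.0%), against a median of 0.00071 and 49.8% below 0 over all genes tested. The shift was not particular to the set: the 76 cytosolic ribosomal protein genes had a median of -0.15 with 81.6% below 0. The 20 glycolysis genes had -0.12 with 75%, and the 17 tested TCA cycle genes -0.015 with 52.9%. Both HT libraries lay below both HH libraries in 34 of the 82 (41.5%, against 16.7% of all genes tested), and above both in 4 (4.88%, against 18.6%). At an unadjusted p under 0.05, 3 of the 82 were lower (3.66%, against 2.73%) and 0 higher (against 3.75%). The count of 3 moved with the library left out, and was 1 with DESeq2. The shares over all genes were not computed for these settings. The smallest adjusted p among the 82 was 0.678. HH replicate 1 stood apart from the other libraries over all genes, with the highest value of 2456 genes and the lowest of 2532. Its deviations from the group mean correlated with those of HT replicate 1 (Pearson r = 0.447 across genes, which are not independent). With 2 libraries a group, the replicate 2 libraries give the same r, so it does not single out either pair. Without HH replicate 1 and HT replicate 1 together, complex IV was at -0.073 (7 of 10 below 0), complex V at -0.15 (13 of 15) and the set at -0.12 (58 of 82). Without HT replicate 1 alone, complex IV was at -0.089 (8 of 10), and without HH replicate 1 alone, complex III was at -0.18. The median of complex II changed sign with the scaling (0.0020 with upper-quartile scaling).

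The 3 genes were Atp5g1, Ndufa5 and Atp5f1. Atp5g1 stood at 41.0 and 43.8 CPM in HH and at 26.1 and 30.0 in HT, a log2 fold change of -0.60 ± 0.18 (SE, n = 2 libraries per group; edgeR adjusted p = 0.678). The 2 HT values were below both HH values. Ndufa5, an accessory subunit of the matrix arm of complex I, stood at 38.5 and 41.0 CPM in HH and 29.2 and 30.3 in HT (-0.42 ± 0.15, edgeR adjusted p = 0.720). Atp5f1, subunit b of the stalk that holds the ATP synthase head in place, stood at 89.4 and 78.8 CPM in HH and 67.0 and 65.7 in HT (-0.34 ± 0.14, edgeR adjusted p = 0.754). Neither gene's HT values overlapped its HH values.

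Further log2 changes of smallest p in HT against HH are given by complex. In complex I the core subunits Ndufs3, Ndufv1 and Ndufs8 stood at -0.33 ± 0.20, -0.24 ± 0.20 and -0.33 ± 0.28, and the accessory subunits Ndufb2 and Ndufs4 at -0.42 ± 0.23 and -0.22 ± 0.13. In complex II, Sdhd, which helps to anchor the enzyme in the membrane, was at -0.29 ± 0.17, while the iron-sulfur subunit Sdhb was at 0.11 ± 0.13 and the flavoprotein Sdha at -0.07 ± 0.13. In complex III the hinge protein gene Uqcrh was at -0.31 ± 0.16 and Uqcrb at -0.19 ± 0.17. In complex IV, Cox5a was at -0.31 ± 0.15, Cox7b at -0.37 ± 0.19 and Ndufa4, named for complex I but now placed in complex IV, at -0.24 ± 0.15. In complex V, Atp5j (coupling factor 6) was at -0.39 ± 0.19. The catalytic β subunit gene Atp5b was at -0.22 ± 0.15 and the α subunit gene Atp5a1 at -0.08 ± 0.13. Among assembly factors, Ndufaf7 and Ndufaf3 were at -0.43 ± 0.21 and -0.56 ± 0.29 and Sdhaf2, which helps to attach the flavin to Sdha, at 0.23 ± 0.13.

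The same 4 h of TTX in cultures that had been silenced before (TT against TH) gave a median of -0.067 over the set, with 55 of 82 below 0 (67.1%, against 49.1% of all genes tested). The ribosomal protein genes had a median of -0.040, also with 67.1% below 0. Complex IV was at -0.13 (9 of 10 below 0), complex V at -0.094 (12 of 15), complex III at -0.055, complex I at -0.033 and complex II at 0.017. Both TT libraries lay below both TH libraries in 13 genes (15.9%, against 14.1%) and above both in 5 (6.1%, against 15.9%). At an unadjusted p under 0.05, 0 were lower (against 0.923%) and 0 higher (against 1.71%). Atp5g1 stood at 42.8 and 31.0 CPM in TH and 27.4 and 30.1 in TT (-0.35 ± 0.18), and Cox5a at 62.1 and 49.8 in TH and 45.6 and 45.0 in TT (-0.30 ± 0.14). Both genes' TT values were below both TH values, by little in the case of TH replicate 2. Ndufa8 of complex I was at -0.40 ± 0.19, and Cox6a1 and Cox7c of complex IV were at -0.31 ± 0.16 and -0.38 ± 0.23. This comparison rests on the TH replicates. Without TH replicate 1 the median of the set was 0.054, with 29 of 82 below 0. Without TH replicate 2 it was -0.19, with 66 below 0. Values above 0 included Ndufs7 of complex I (0.25 ± 0.24), Uqcrc2 of complex III (0.09 ± 0.12), Sdhc of complex II (0.08 ± 0.12) and Ndufaf5 (0.13 ± 0.16).

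Whether the response to the second TTX differed with history was tested as an interaction (TT against TH minus HT against HH). The median over the set was 0.072, with 30 of 82 below 0 (36.6%), against 0.0070 and 48.8% over all genes tested. The ribosomal protein genes had a median of 0.11 with 32.9% below 0. In the set, 0 genes passed an unadjusted p of 0.05 in either direction (against 1.64%). The smallest p were those of Sdhaf2 (-0.38 ± 0.18, edgeR adjusted p = 1) and Ndufaf7 (0.57 ± 0.29). Sdhaf2 stood at 64.5 and 64.9 CPM in HH, 77.4 and 74.1 in HT, 71.0 and 76.1 in TH and 61.8 and 70.5 in TT. Its HT values were above its HH values and its TT values below its TH values. Ndufaf7, which acts in complex I assembly as a methyltransferase, stood at 14.8 and 15.6 CPM in HH, 12.2 and 10.4 in HT, 12.4 and 13.2 in TH and 13.7 and 14.5 in TT, the opposite order. The median for the set was 0.20 without TH replicate 1 and -0.043 without TH replicate 2.

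**Figure D3:**
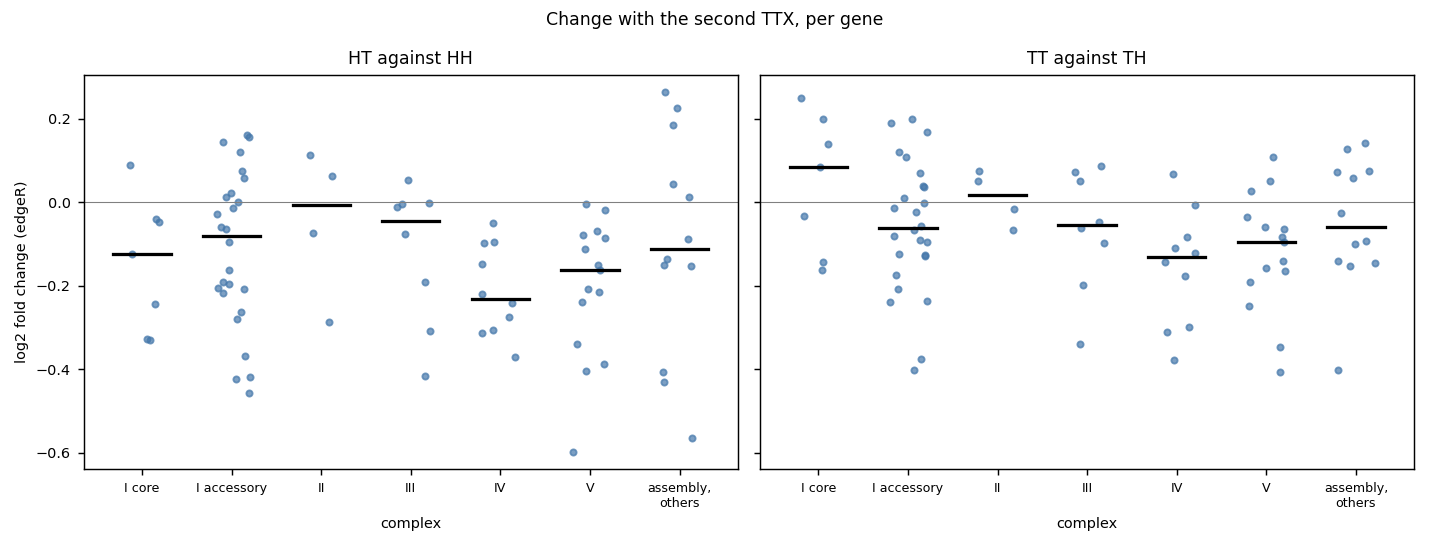
Log2 fold change of each gene for the second TTX, without a history of TTX (HT against HH) and with one (TT against TH), by complex, with the bar at the median. In HT against HH all 10 genes of complex IV and all 15 of complex V lie below 0, and complex II is centred near 0.

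Averaged over the 2 histories, the second TTX gave a median of -0.10 with 67 of 82 below 0 (81.7%, against 50.3% of all genes tested). All 10 genes of complex IV (median -0.18) and all 15 of complex V (-0.14) were below 0, as were 27 of 33 of complex I (-0.064), 6 of 8 of complex III (-0.063) and 2 of 4 of complex II (-0.011). At an unadjusted p under 0.05, 3 were lower (3.66%, against 2.59%) and 0 higher (against 4.35%). These were Atp5g1 (-0.47 ± 0.13, edgeR adjusted p = 0.345), Cox5a (-0.30 ± 0.10, edgeR adjusted p = 0.511) and Atp5f1 (-0.25 ± 0.10, edgeR adjusted p = 0.654). Among genes above 0 were Ndufs7 (0.17 ± 0.17), Ndufaf5 (0.16 ± 0.11) and Sdhc (0.07 ± 0.08). The core subunit Ndufs1 was at -0.02 ± 0.09, the complex III core protein Uqcrc1 at -0.07 ± 0.13 and the Rieske protein gene Uqcrfs1 at -0.01 ± 0.18. The medians moved with TH replicate 1. Without it, the set stood at -0.022 with 46 of 82 below 0, complex IV at -0.11 (9 of 10), complex V at -0.021 (9 of 15), complex III at 0.048 and complex I at 0.000049. Without TH replicate 2, the set was at -0.18. The count of 3 lower genes also moved with the library left out, and was 2 with DESeq2. Here too the shares over all genes were not computed.

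All 4 libraries given the second TTX lay below the other 4 in 2 of the 82 genes (2.44%, against 1.64% of all genes tested), and above them in 0 (against 2.69%). One was Atp5g1, whose lowest value without the second TTX was 31.0 CPM (TH replicate 2) and whose highest value with it was 30.1 CPM (TT replicate 2). The other was Ndufa7, an accessory subunit of complex I. It stood at 42.6 and 46.4 CPM in HH and 42.8 and 40.7 in TH, and at 40.4 and 37.6 in HT and 38.9 and 37.6 in TT (-0.16 ± 0.10, edgeR adjusted p = 0.799). In both genes the gap between the sides was small, and Ndufa7 no longer separated them when the libraries were scaled by their totals alone. Cox5a, a matrix-side subunit of complex IV, nearly separated them: 62.3 and 58.2 CPM in HH and 62.1 and 49.8 in TH, against 47.1 and 50.2 in HT and 45.6 and 45.0 in TT.

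The fitted changes of the 3 subunit c genes were not of the same size, and the difference between the genes was not tested. Atp5g2 stood at 40.7 and 48.5 CPM in HH, 43.5 and 44.9 in HT, 50.0 and 38.2 in TH and 42.4 and 43.2 in TT. Its average log2 change with the second TTX was -0.03 ± 0.11. Atp5g3 stood at 40.1 and 40.4 CPM in HH, 39.3 and 36.5 in HT, 42.5 and 28.7 in TH and 35.1 and 32.7 in TT, with an average change of -0.07 ± 0.13. The groups overlapped in both genes. Ratios within a library do not depend on its scaling. The log2 ratio of Atp5g1 to Atp5g2 was -0.61 ± 0.088 (SD, n = 4) in the libraries given the second TTX, with values from -0.72 to -0.52, and -0.16 ± 0.13 in the other 4, with values from -0.30 to 0.011. That of Atp5g1 to Atp5g3 was -0.33 ± 0.19 against 0.066 ± 0.053, also without overlap. Atp5g2 to Atp5g3 gave 0.28 ± 0.11 against 0.23 ± 0.16 and did overlap. These ratios were chosen after the values were seen, when Atp5g1 was already known to separate the libraries. They carry no test and are no further support, and each set of 4 libraries pools both histories.

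**Figure D4:**
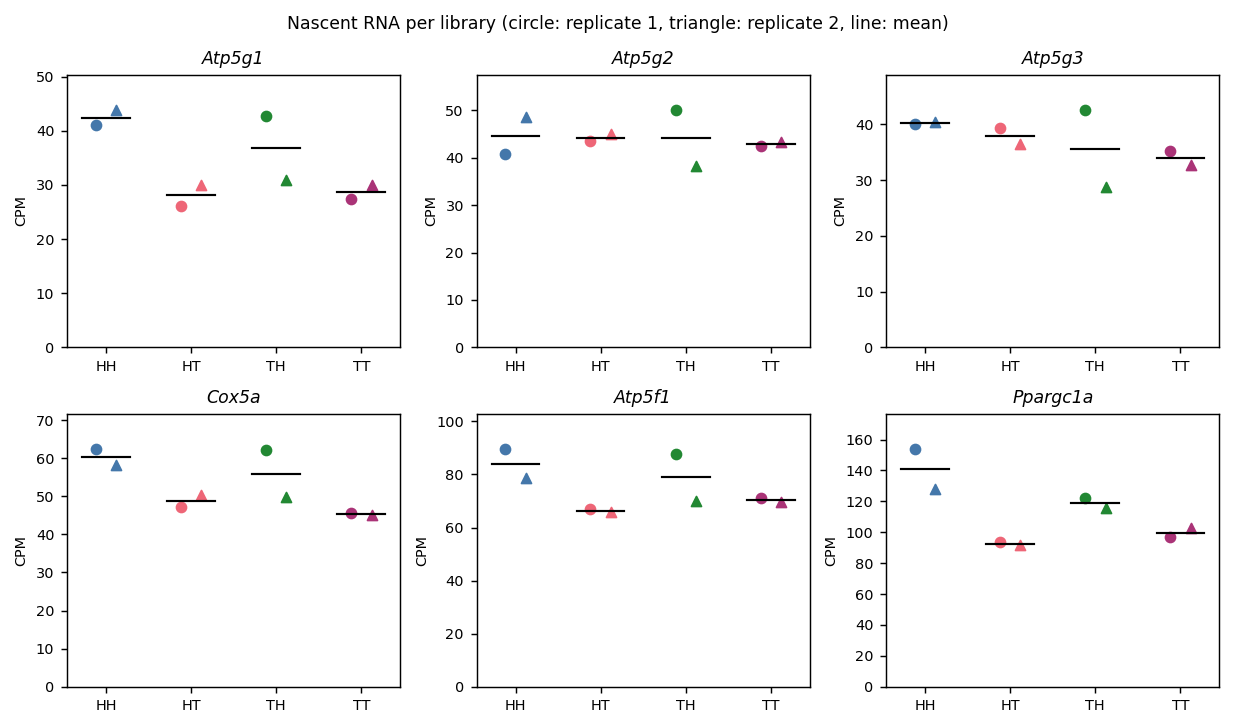
CPM of Atp5g1, Atp5g2, Atp5g3, Cox5a, Atp5f1 and Ppargc1a (the gene of PGC-1α) in each library, by group, with a point per library. In Atp5g1 the 4 libraries given the second TTX all lie below the other 4. Atp5g2 and Atp5g3, which encode the same mature subunit c, overlap between groups.

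The history of TTX was compared without the second TTX (TH against HH) and with it (TT against HT). TH against HH shares its HH libraries with HT against HH and its TH libraries with TT against TH. In TH against HH the median was -0.11 and 61 of 82 lay below 0 (74.4%, against 49.8%). The ribosomal protein genes had a median of -0.16 with 84.2% below 0. Complex V was at -0.19 (13 of 15), complex III at -0.15 (6 of 8), complex IV at -0.11 (10 of 10), complex I at -0.064 (22 of 33) and complex II at -0.029 (3 of 4). Both TH libraries lay below both HH libraries in 19 genes (23.2%, against 13.4%) and above both in 4 (4.88%, against 16.7%), and 0 passed an unadjusted p of 0.05 as lower (against 2.02%) or higher (against 2.06%). Cox5b of complex IV was at -0.41 ± 0.21, Atp5c1, the rotating γ subunit of complex V, at -0.26 ± 0.13, and Ndufv1, the NADH-binding core subunit, at -0.28 ± 0.20. Here too the TH replicates decided the value: the median was -0.25 without TH replicate 1 and 0.074 without TH replicate 2. Above 0 were the assembly factor genes Ndufaf5 (0.27 ± 0.16), Ndufaf6 (0.26 ± 0.20) and Sdhaf2 (0.19 ± 0.13).

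In TT against HT the median was -0.0033, with 42 of 82 below 0 (51.2%, against 49.9% of all genes tested). The ribosomal protein genes had a median of -0.062 with 72.4% below 0. Both TT libraries lay below both HT libraries in 23 genes of the set (28%, against 16.2%) and above both in 18 (22%, against 18.2%). At an unadjusted p under 0.05, 0 were lower (against 1.06%) and 0 higher (against 1.28%). Complex III (-0.084, 6 of 8 below 0) and complex IV (-0.082, 7 of 10) had medians below 0, and complex I (0.055, 13 of 33) and complex II (0.044, 2 of 4) above it. Sdhd was at 0.31 ± 0.17, Ndufs5 at -0.33 ± 0.20 and Cox7c at -0.34 ± 0.23. Sdhaf3, which has the lowest summed count of the 82, was at -0.61 ± 0.35. Ndufaf7 (0.32 ± 0.21), Uqcrc2 (0.16 ± 0.12) and Ndufs1 (0.15 ± 0.13) were above 0.

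Averaged over the second treatment, history gave a median of -0.055 with 58 of 82 below 0 (70.7%, against 50% of all genes tested). The ribosomal protein genes had a median of -0.11 with 89.5% below 0. Complex III stood at -0.13 (7 of 8), complex IV at -0.098 (9 of 10), complex V at -0.080 (14 of 15), complex I at -0.029 (20 of 33) and complex II at 0.039 (2 of 4). At an unadjusted p under 0.05, 2 were lower (2.44%, against 2.74%) and 0 higher (against 3.01%). They were Atp5l, subunit g of complex V (-0.23 ± 0.10, edgeR adjusted p = 0.814), and Cox5b (-0.33 ± 0.15, edgeR adjusted p = 0.814). Cox5b stood at 31.8 and 32.6 CPM in HH, 23.3 and 30.0 in HT, 28.7 and 20.0 in TH and 22.7 and 22.1 in TT. All libraries given the first TTX lay below the other 4 in 1 gene (1.22%, against 1.17%) and above them in 0 (against 1.73%). That gene was Sdhb, at 47.5 and 45.9 CPM in HH and 53.5 and 47.5 in HT, against 43.9 and 44.1 in TH and 43.9 and 43.2 in TT (-0.15 ± 0.09), and its groups overlapped when scaled by totals alone. Without TH replicate 2 the median was 0.017 for the set, 0.0093 for complex V, 0.015 for complex III and 0.071 for complex I, and it was -0.044 for complex IV. The count of 2 lower genes moved with the library left out, and was 0 with upper-quartile scaling or DESeq2. For these settings the shares over all genes were not computed. Ndufaf5 (0.24 ± 0.11), Ndufaf6 (0.23 ± 0.14) and Uqcrc2 (0.11 ± 0.09) were above 0.

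**Figure D5:**
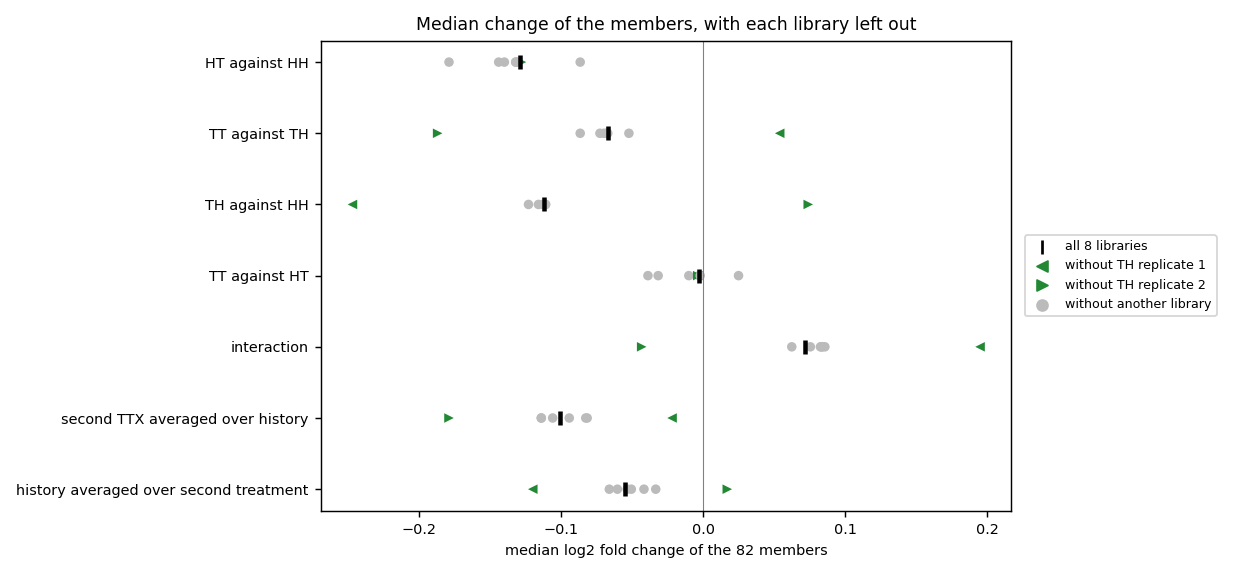
Median log2 change of the 82 genes in each of the 7 comparisons, with all 8 libraries and with each library left out. The median of HT against HH stays below 0 throughout (-0.18 to -0.087), whereas TT against TH runs from -0.19 to 0.054 and TH against HH from -0.25 to 0.074 as one or the other TH library is left out.

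Other genes of mitochondrial energy metabolism were read from lists kept apart from the 82. None passed the adjusted threshold. Of 29 tested assembly factors outside the name rule, 11 lay below 0 with the second TTX on average (median 0.024), and of 9 electron carriers and further respiratory genes, 5 (-0.0035). Among them Sco1, a copper chaperone of complex IV, was at 0.41 ± 0.16, and Pet100 and Cox17, which also serve complex IV assembly, were at -0.56 ± 0.22 and -0.39 ± 0.17. Usmg5, a small subunit of complex V under another name, was at -0.31 ± 0.14 and cytochrome c (Cycs) at -0.15 ± 0.13, and Etfb, of the electron transfer flavoprotein, at 0.12 ± 0.16. The 17 tested genes of the TCA cycle had a median of -0.038 (10 below 0), with Suclg2 at 0.25 ± 0.10, Mdh2 at -0.18 ± 0.12 and Idh3g at -0.22 ± 0.15. The 20 glycolysis genes had a median of -0.14 (15 below 0): Tpi1 was at -0.51 ± 0.20, the neuronal glucose transporter Slc2a3 at -0.39 ± 0.15 and the regulatory enzyme Pfkfb3 at 0.28 ± 0.09. The 76 ribosomal protein genes had a median of -0.074 with 62 below 0, and Rpl27a, Rpl5 and Rpl23 stood at -0.31 ± 0.10, -0.25 ± 0.11 and -0.25 ± 0.11.

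Of 15 tested regulators of respiratory gene transcription, 6 lay below 0 (median 0.029). Ppargc1a, which encodes PGC-1α, stood at 154 and 128 CPM in HH and 122 and 115 in TH, against 93.7 and 91.5 in HT and 96.7 and 103 in TT. The 4 libraries given the second TTX were all below the other 4. Its average log2 change was -0.43 ± 0.09 (edgeR adjusted p = 0.221), and in HT against HH it was -0.60 ± 0.13 (edgeR adjusted p = 0.519). Leaving out each library in turn gave average changes from -0.49 to -0.36. Nfe2l2, which encodes a factor of the antioxidant response, was at 0.29 ± 0.12, and Pprc1, a relative of Ppargc1a, at 0.38 ± 0.21. Of the factors named above, Nrf1 (0.09 ± 0.09), Gabpa (0.18 ± 0.11) and Yy1 (0.03 ± 0.09) showed smaller values, and Sp1 is not given here. Gabpa overlaps Atp5j, so its value may include reads of that gene. Of 11 genes for transcription and replication of mitochondrial DNA, 2 lay below 0 (median 0.077). The polymerase subunit genes Polg and Polg2 were at 0.36 ± 0.11 and -0.35 ± 0.14, and Tfb1m, an rRNA methyltransferase, was at 0.37 ± 0.15.

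Markers of other cell types differed between the same groups. Dividing cell markers (7 of 7 present, none at 0) summed to 109 to 113 CPM in HH, 112 to 130 in TH, 153 to 197 in HT and 171 to 174 in TT. Oligodendrocyte lineage markers (10 of 10) summed to 495 to 586, 621 to 668, 693 to 756 and 701 to 839 CPM in the same order of groups. The summed level of inhibitory neuron markers (7 of 7 in the table) ran the other way, at 838 to 1080, 643 to 827, 608 to 641 and 544 to 617 CPM. Single markers differed: in HT against HH, 4 of the 6 tested lay below 0 and 2 above. Dlx1 stood at 14.5 and 17.7 CPM in HH and at 17.8 and 20.2 in HT. Astrocyte markers lay above 0 with the second TTX on average in 7 of 8 (median 0.18), and pan-neuronal markers below 0 in 8 of 8 (median -0.14). At an unadjusted p under 0.05, 3 of the 8 astrocyte markers were higher (against 4.35% of all genes tested). So were 8 of 9 tested oligodendrocyte lineage markers and 6 of 7 dividing cell markers. In these lists 0 were lower (against 2.59%), and 0 pan-neuronal markers were lower or higher. Excitatory neuron markers had a median of -0.022, with 5 of 7 below 0. Microglia markers (6 of 6) summed to at most 14.0 CPM. The part of these markers in the values of the oxidative phosphorylation genes was not tested.

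Some of the 82 cannot be read alone. Ndufa10l1 is a near copy of Ndufa10, so reads may have been split between them, and the strand setting is not known. In RefSeq, 31 of the 82 overlap another gene and 19 a protein-coding one, among them Atp5j with Gabpa, Ndufs3 with Kbtbd4, Ndufb2 with Braf and Uqcr10 with Zmat5. Values of these genes may include reads of their neighbours. Atp5g1, Cox5a, Atp5f1, Ndufa5 and Ndufa7 overlap none there.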

How the data were processed

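BrU-seq libraries of 4 groups, 2 each, were analysed from whole-number read counts per gene, deposited by the authors without normalization. The submitters' processing notes name featureCounts, TopHat2, Bowtie2, FastQC and rat build rn6. Versions, annotation, strand setting and the treatment of intronic reads were not given in the sources used here. Leaving introns out would lower the counts of long genes in unspliced RNA. Groups came from the sample titles, and 2 columns that matched no sample were left out.

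Counts were fitted in R 4.3.3 with edgeR 4.0.16 (filterByExpr, TMM, robust quasi-likelihood test, 1 model of 4 group means, 4 residual degrees of freedom), with Benjamini-Hochberg adjustment over the 11372 of 16871 genes that passed the filter. Standard errors were derived as |log2 change| / sqrt(F) and rest on the spread in all 4 groups. Set medians are descriptions. Log2 CPM used a prior count of 2. The fit was tested on simulated data. Alternatives used DESeq2 1.42.0, limma 3.58.1, other scalings, no filter, the replicate number as a block, and leaving out libraries. Figures used Python 3.11.15 with matplotlib 3.10.9.

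Whether libraries overlap was also read with other scalings, an alternative chosen after seeing the data. The members and lists were chosen with earlier results of these data known. Genes named were drawn, without printing every one, from these: in each comparison and class, the 3 of smallest p; the isoform sets; catalytic or anchor subunits; genes whose libraries do not overlap; 3 of smallest p in each companion list; and rows next to the count limit. Other genes were named after their values were seen.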

Additional observations from a re-analysis of the deposited data

How the results depend on the processing

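No gene of the set passed the adjusted threshold under any setting tried. Over all genes tested, 0 passed for the second TTX averaged over history, against 16 with no low-count filter and 11 with DESeq2; without HH replicate 2, 39, 121 and 104 passed for HT against HH, TH against HH and history, and 8 for the second TTX. The median of the set kept its direction in HT against HH and in the second TTX averaged over history under every setting; leaving out each library in turn gave -0.18 to -0.087 and -0.18 to -0.022. The second of these ranges was bounded by the TH libraries too, at -0.022 without TH replicate 1 and -0.18 without TH replicate 2. Except in TT against HT, the direction elsewhere turned with the TH library left out. The ranges were -0.19 to 0.054 for TT against TH, -0.25 to 0.074 for TH against HH, -0.043 to 0.20 for the interaction and -0.12 to 0.017 for the history average, each bounded by TH replicate 1 and TH replicate 2. TT against HT, near 0, ran from -0.039 to 0.025 (without HT replicate 2) and was 0.0086 with upper-quartile scaling; the cause was not tested. A group left with 1 library is assumed to vary like the others. With 2 libraries a group and counts down to 13, small changes of single genes were not detectable.

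With the replicate number as a block, the medians were -0.13 (HT against HH), -0.063 (TT against TH), -0.11 (TH against HH), -0.0034 (TT against HT), 0.076 (interaction), -0.099 (second TTX) and -0.055 (history), and no call changed. Deviations of same-numbered libraries correlated at 0.447 for HH with HT and from -0.066 to 0.087 otherwise, so the numbers were not taken to pair the samples.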
